A study of Mus musculus with 6 samples.

Results

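The genes described here are 10 feedback inhibitors of growth factor signalling through RAS and ERK: the dual-specificity phosphatase genes Dusp4, Dusp5 and Dusp6, the Sprouty genes Spry1, Spry2, Spry3 and Spry4, and the SPRED genes Spred1, Spred2 and Spred3. They were chosen by name, with earlier results of these data known. Of the 10 names, 9 matched a row among the 33924 gene names of the count table, and Spry3 was not analysed here. RNA was sequenced in bulk from FVB/NJ mice, an inbred strain, at 6 months. The control group is 3 libraries of normal lung (replicates 1, 2 and 3), and the tumour group is 3 libraries of lung tumour induced by urethane, a chemical carcinogen (replicates 1, 2 and 4). The treatments listed for the study are saline and urethane, the latter at 1 g per kg into the peritoneal cavity; normal lung is not tied to saline by name. The labels do not describe how tumours were cut out of the lung, or whether a library is 1 animal or a pool. The p-values therefore measure only the spread between these libraries. Apart from tumour replicate 2, which differs from the others in sex-linked genes (below), that spread may be technical.

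In the ERK pathway, ligand-bound receptor tyrosine kinases load RAS with GTP, and RAS passes the signal through RAF and MEK kinases to ERK. Active ERK raises the transcription of several of its own inhibitors, which makes their transcripts a common readout of pathway activity. Sprouty proteins act between the receptor and RAF, SPRED proteins bring the RAS inhibitor neurofibromin to the membrane, and the dual-specificity phosphatases remove the activating phosphates from ERK itself. In the developing lung, Sprouty genes are known for limiting the branching that fibroblast growth factor drives in the airway epithelium.

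Counted reads ran from 38996532 to 62336537 per library, and a member had between 137 and 44382 reads in a library. At these depths 3 reads equal 0.0481 to 0.0769 CPM (a gene's count scaled to a fixed library total). Tumour replicate 2 differed from the other 5 libraries in sex-linked genes: it had 3360 CPM of Xist, against at most 32.9 in the others, and 0.216 of the Y-linked gene Kdm5d, against at least 37.6. The tumour group differed from control lung in cell type markers as well. Of the markers of AT2 cells, which make surfactant in the alveolus, 8 of 8 rose (summed CPM of 9676 to 16090 in controls and 27520 to 62015 in tumours), as did 4 of 4 cycling cell and 4 of 5 epithelial markers. All 10 endothelial, all 5 smooth muscle, all 7 lymphocyte, all 4 ciliated and all 3 club cell markers fell, as did 7 of 8 fibroblast markers. Summed endothelial markers were 3386 to 4472 CPM in controls and 261 to 369 in tumours, and summed fibroblast markers 1545 to 1773 and 217 to 414. The first gene of each list had a log2 fold change of 1.77 for Sftpc (AT2), 1.77 for Mki67 (cycling), 2.45 for Epcam (epithelium), -3.26 for Pecam1 (endothelium), -2.0 for Acta2 (smooth muscle), -2.77 for Cd3e (lymphocytes), -8.49 for Foxj1 (ciliated) and -10.79 for Scgb1a1 (club). Of the AT1 markers 1 rose and 3 of 5 fell (Ager, -1.20), and of the macrophage markers 1 rose and 1 of 6 fell (Cd68, 0.18, did not pass). The fibroblast collagen gene Col1a1 had -0.26 and did not pass. Without tumour replicate 2 the values were -9.38 for Foxj1 and -3.43 for Cd3e, and without control replicate 3 the rise of Sftpc did not pass (adjusted p = 0.0563). Foxj1 had 0.0327, 0.0718 and 0.0 CPM in tumour replicates 1, 2 and 4, around or under the level of 3 reads. The size of the Foxj1 fall is therefore poorly known. No marker was without reads over a whole group. In bulk tissue, more cells of a type and more RNA per cell cannot be told apart, and the part of these marker shifts in the results below was not tested.

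All 9 measured members rose in the tumours (edgeR's quasi-likelihood test over 20001 genes, with a Benjamini-Hochberg adjusted p under 0.05), where 18.1% of all genes tested rose. Their log2 fold changes ran from 0.79 to 2.33 with a median of 1.67, beside a median of 0.01 over all genes tested. In all 9 the lowest tumour library was above the highest control library, a separation that 26.1% of the genes tested showed in this direction. A rise of at least 2-fold by the fitted value was found in 8 of the 9, where 10.5% of all genes rose that far. Because earlier results were known when the members were chosen, these counts do not test the list against the whole table. Tested against a 2-fold change instead of no change, 5 passed: Dusp4, Dusp5, Dusp6, Spry2 and Spred1 (edgeR glmTreat adjusted p of 0.000474, 0.000431, 0.00619, 0.0126 and 0.000617). With each library left out in turn, 8 of the 9 members passed in all 6 fits, and the exception was Spred3. All 9 passed without tumour replicate 2, the library that stood apart in sex-linked genes.

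**Figure D1:**
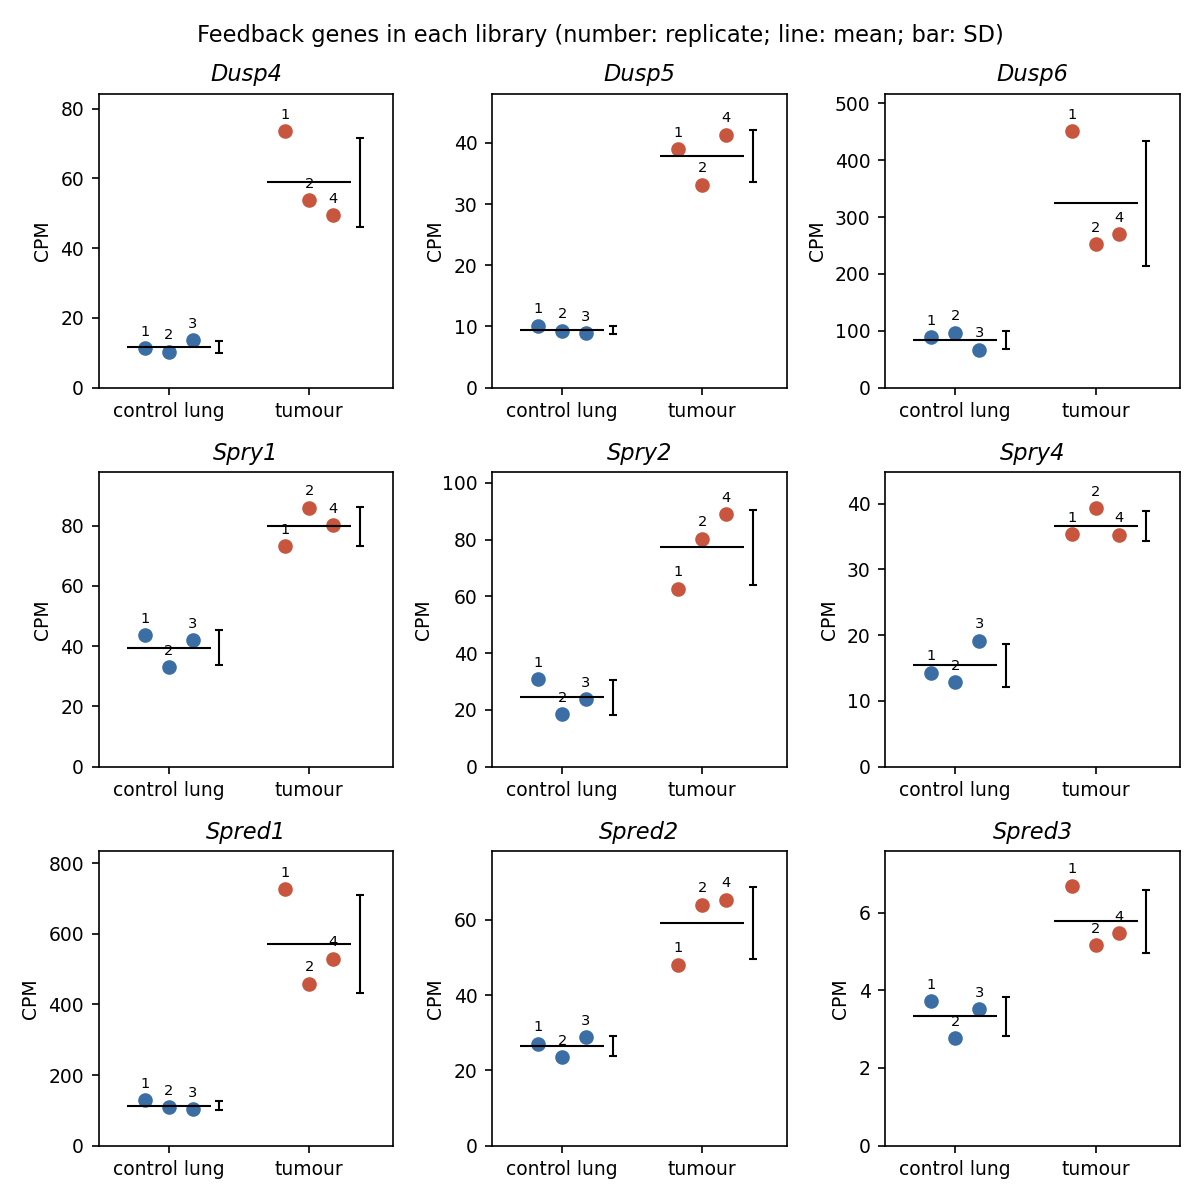
CPM of each member in every library, on an axis that starts at 0 in each panel; numbers give the replicate, the line the group mean and the bar the SD (n = 3). In all 9 panels the 3 tumour libraries lie above the 3 control libraries, and tumour replicate 1 is the highest for Dusp4, Dusp6, Spred1 and Spred3.

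All 3 phosphatase members rose, and their median log2 fold change of 2.0 was the highest of the 3 families. Dusp6 encodes a cytoplasmic phosphatase with a strong preference for ERK (mm9, chr10:98725865-98730122, plus strand). Its level was 88.5, 96.5 and 66.3 CPM in control replicates 1, 2 and 3, and 451, 252 and 270 in tumour replicates 1, 2 and 4. Tumour replicate 1 stood 1.79-fold above the lowest tumour, and that lowest tumour was still 2.61-fold above the highest control. Tumours exceeded controls by 1.95 ± 0.27 (SE) on the log2 scale, with an edgeR adjusted p = 0.000644.

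Dusp4 encodes a nuclear phosphatase that acts on ERK and also on other MAP kinases (mm9, chr8:35870351-35882948, plus strand). It had 11.3, 10.3 and 13.7 CPM in control replicates 1, 2 and 3, and 73.5, 53.7 and 49.5 in tumour replicates 1, 2 and 4. The groups were 3.62-fold apart at their nearest libraries. Its log2 fold change of 2.33 ± 0.21 (edgeR adjusted p = 7.86e-05) is a 5.02-fold rise.

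Dusp5 encodes a nuclear phosphatase specific for ERK (mm9, chr19:53603599-53616921, plus strand). It had 10.1, 9.32 and 8.87 CPM in control replicates 1, 2 and 3, and 38.9, 33.1 and 41.4 in tumour replicates 1, 2 and 4. Both groups were tight: the highest library exceeded the lowest by 1.14-fold in controls and 1.25-fold in tumours. Its log2 fold change was 2.0 ± 0.16, and the adjusted p = 5.09e-05 was the smallest of the 9 members in the edgeR test.

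The promoters of Dusp5 and Dusp6 are shown, a pair picked after its fold changes and motif matches were seen. Only the Dusp5 window holds a CArG box, the element that serum response factor binds. Of the 9 members, 7 were searched in the RefSeq promoter table (GRCm38.p6), which spans 250 bases before to 50 after a gene's start. Dusp4 had no entry, and Spry4 was not searched because its chromosome was left out. The 250 bases before the start are printed 5′ to 3′ on the gene's strand, with CArG boxes in capitals. Dusp5 lies at chr19:53528895-53529144 and Dusp6 at chr10:99262981-99263230, both on the plus strand.
Dusp5: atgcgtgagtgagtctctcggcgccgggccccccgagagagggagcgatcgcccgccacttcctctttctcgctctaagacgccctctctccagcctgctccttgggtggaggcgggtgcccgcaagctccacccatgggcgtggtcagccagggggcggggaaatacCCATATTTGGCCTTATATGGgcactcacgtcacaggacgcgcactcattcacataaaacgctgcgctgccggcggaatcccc
Dusp6: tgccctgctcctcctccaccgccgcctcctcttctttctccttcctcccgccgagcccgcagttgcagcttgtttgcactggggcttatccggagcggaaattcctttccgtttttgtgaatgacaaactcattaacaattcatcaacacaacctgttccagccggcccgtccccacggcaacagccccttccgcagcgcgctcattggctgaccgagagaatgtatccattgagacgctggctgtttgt
The Dusp5 window holds 2 CArG boxes next to each other, CCATATTTGG at positions -82 to -73 and CCTTATATGG at -72 to -63 from the start. On either strand, a CArG box occurs in 535 of the 32851 promoters of the table (1.63%). Both strands were also searched for the ETS core CCGGAA, its extension CCGGAAG, the AP-1 motifs TGACTCA and TGAGTCA (the reverse complement of each other) and the cAMP response element TGACGTCA. The ETS core occurs in 14.9% of all promoters and, among the 7 members, in that of Spry2, at positions 34 to 39 after the start. CCGGAAG (8.86% of all promoters), the AP-1 motifs (5.20%) and TGACGTCA (1.79%) had no match in the windows of the 7 members. A match is only a description of these letters, and the part of any motif in the rises was not tested.

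All 3 measured Sprouty genes rose, with a median log2 fold change of 1.25, and Spry2 had the highest value among them. Spry2 (mm9, chr14:106291166-106296036, minus strand) encodes a Sprouty protein of the distal lung epithelium. It had 30.8, 18.5 and 23.8 CPM in control replicates 1, 2 and 3, and 62.7, 80.2 and 88.9 in tumour replicates 1, 2 and 4. Control replicate 1 was the highest control and tumour replicate 1 the lowest tumour, and these libraries were 2.03-fold apart. The fitted log2 difference was 1.67 ± 0.22 (edgeR adjusted p = 0.000601).

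Spry1 (mm9, chr3:37538869-37543520, plus strand) encodes a Sprouty protein best known for restraining RET signalling in kidney development. Its values were 43.7, 33.0 and 41.9 CPM in control replicates 1, 2 and 3, and 73.2, 85.9 and 80.2 in tumour replicates 1, 2 and 4. The groups did not overlap, and the log2 fold change was 1.01 ± 0.16 (edgeR adjusted p = 0.00129), a 2.02-fold rise.

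Spry4 (mm9, chr18:38745922-38760922, minus strand) encodes a Sprouty protein that restrains fibroblast growth factor signalling. It had 14.3, 12.8 and 19.1 CPM in control replicates 1, 2 and 3, and 35.4, 39.3 and 35.3 in tumour replicates 1, 2 and 4. The tumour libraries lay within 1.11-fold of each other, the narrowest range of the 9 members in tumours. Its fitted rise was 1.25 ± 0.18 on the log2 scale (edgeR adjusted p = 0.000969).

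The SPRED genes had the widest range of fold changes of the 3 families: Spred1 rose 5.03-fold, Spred2 2.23-fold and Spred3 1.73-fold. Spred1 (mm9, chr2:116947110-117008015, plus strand) encodes the SPRED protein whose loss causes a syndrome resembling neurofibromatosis in humans. It had 129, 108 and 104 CPM in control replicates 1, 2 and 3, and 726, 458 and 529 in tumour replicates 1, 2 and 4. The lowest tumour was 3.57-fold above the highest control. The log2 fold change of 2.33 ± 0.22 (edgeR adjusted p = 0.000101) was the largest of the 9 members, and 2.96% of the genes tested had a larger one.

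Spred2 (mm9, chr11:19824378-19924029, plus strand) encodes a second SPRED protein that binds neurofibromin. It had 27.0, 23.5 and 28.8 CPM in control replicates 1, 2 and 3, and 48.0, 64.0 and 65.3 in tumour replicates 1, 2 and 4. Spred2 rose by 1.16 ± 0.17 on the log2 scale (edgeR adjusted p = 0.000949), with no overlap between the groups. Of the 32-base words of the longest Spred2 transcript, 4.14% also occur in another gene; the share was 0.829% for Spry2 and 0% for the other 7 members, and no exon base of a member lies in an exon of another gene name.

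Spred3 (mm9, chr7:29943848-29954860, minus strand) encodes the third SPRED protein and was the member with the fewest reads. It had 3.72, 2.77 and 3.51 CPM in control replicates 1, 2 and 3, and 6.69, 5.15 and 5.47 in tumour replicates 1, 2 and 4. The log2 fold change was 0.79 ± 0.24 (edgeR adjusted p = 0.0312). It did not pass without control replicate 1, 2 or 3 or without tumour replicate 4, with adjusted p of 0.0584, 0.113, 0.0764 and 0.0581. When libraries were scaled to their totals alone, the log2 fold change was 0.70 (adjusted p = 0.0847), while the median over all genes moved to -0.10.

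To compare levels between members, CPM were divided by each gene's exon length in kilobases. In control lung the order was Dusp6 (30.0 ± 5.59 CPM per kilobase, SD, n = 3), Spred1 (16.7 ± 1.95), Spry1 (13.6 ± 1.97), Spry2 (11.7 ± 2.97), Spred2 (5.73 ± 0.586), Dusp4 (4.28 ± 0.636), Dusp5 (3.82 ± 0.258), Spry4 (3.36 ± 0.718) and Spred3 (0.556 ± 0.0838). Neighbours in that order whose library values overlapped were Spry1 and Spry2, Dusp4 and Dusp5, and Dusp5 and Spry4. The tumour order was Dusp6 (116 ± 39.4), Spred1 (84.2 ± 20.4), Spry2 (37.0 ± 6.40), Spry1 (27.4 ± 2.19), Dusp4 (21.5 ± 4.69), Dusp5 (15.3 ± 1.71), Spred2 (12.8 ± 2.08), Spry4 (7.99 ± 0.500) and Spred3 (0.962 ± 0.135). Here Dusp6 and Spred1, Spry1 and Dusp4, and Dusp5 and Spred2 overlapped. Within a library, Spry2 relative to Spry1 was 0.984, 0.782 and 0.791 in control replicates 1, 2 and 3. In tumour replicates 1, 2 and 4 this ratio was 1.19, 1.30 and 1.55. Spred2 moved from above Dusp4 to below it.

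**Figure D2:**
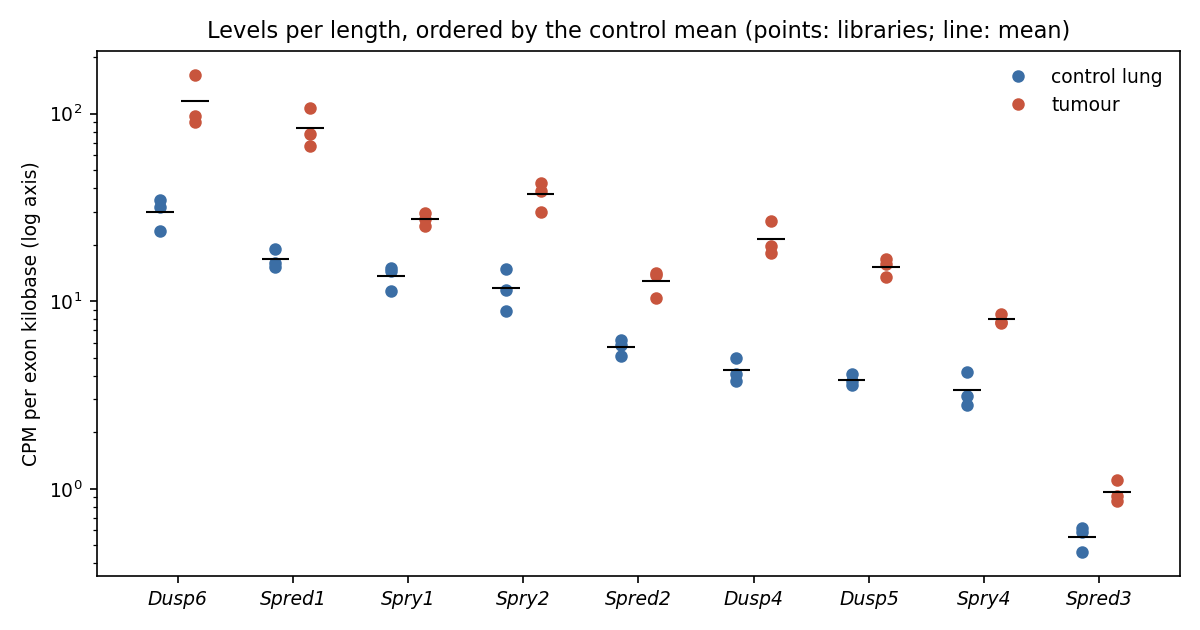
Levels of the 9 members per exon kilobase, on a log axis, ordered by their control mean; points are libraries and lines are group means (n = 3). Dusp6 and Spred1 head both groups, at 30.0 and 16.7 in control lung and 116 and 84.2 in tumours, and Spred3 is lowest in both.

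A family here means only its measured members. Shares within a family are read inside a single library and so do not depend on how libraries are scaled. Spred1 held 74.5%, 74.2% and 69.1% of the SPRED counts per kilobase in control replicates 1, 2 and 3, and 90.3%, 82.1% and 83.8% in tumour replicates 1, 2 and 4. Every tumour library was above every control library. The level of Spred1 relative to Spred2 was 3.24, 3.14 and 2.45 in the controls and 10.3, 4.88 and 5.51 in the tumours, so tumour replicate 1 stood well above the other tumours in this ratio.

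Among the Sprouty members the balance moved from Spry1 to Spry2. Spry2 held 44.9%, 38.6% and 38.0% in control replicates 1, 2 and 3, and 47.7%, 50.2% and 54.7% in tumour replicates 1, 2 and 4, again without overlap. Spry1 went the other way, from 47.7% ± 1.86 in controls to 38.0% ± 2.35 in tumours (SD, n = 3), and Spry4 held 11.8% ± 2.24 and 11.1% ± 1.19. Among the 3 phosphatase members Dusp6 held 78.3% ± 4.43 in controls and 75.3% ± 3.33 in tumours, and the shares of all 3 overlapped between the groups. The shares of these 3 members thus did not set the groups apart, although their summed level rose from 38.1 ± 5.11 to 153 ± 44.5 CPM per kilobase. Other MAP kinase phosphatase genes, described below, are outside these shares and this sum.

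**Figure D3:**
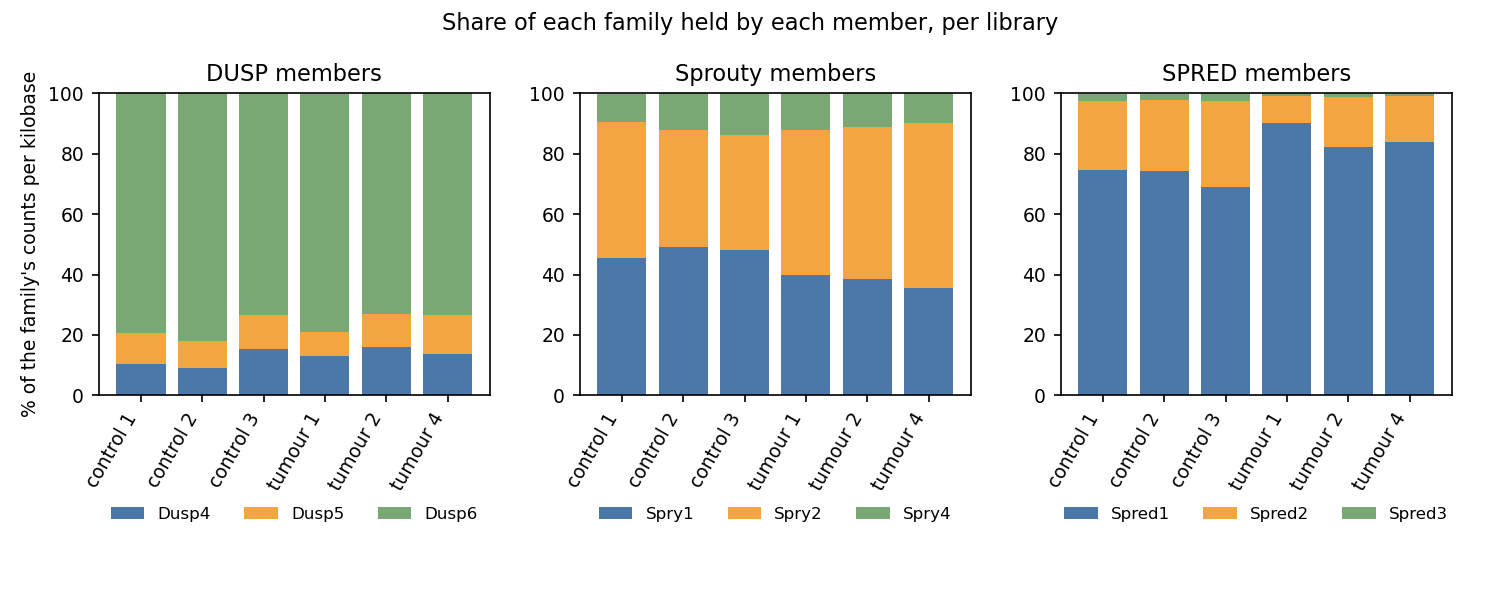
Share of each family's counts per kilobase held by each member, in percent, in each of the 6 libraries; each bar adds to the family's whole. Spred1 fills 69.1% to 74.5% of the SPRED bars in controls and 82.1% to 90.3% in tumours, and the DUSP bars of the groups overlap.

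Tumour libraries did not rank the members alike. Tumour replicate 1 was the highest tumour for Dusp4, Dusp6, Spred1 and Spred3, and the lowest for Spry1, Spry2 and Spred2. The same library had the highest summed level of cycling cell markers, 344 CPM against 144 and 149 in tumour replicates 2 and 4, where controls had 41.1 to 62.5. Its summed epithelial markers were 1304, against 953 and 796, and its summed AT2 markers 27520, against 62015 and 47777. The part of these markers in the spread among tumours was not tested.

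The other active MAP kinase phosphatases moved mostly in the opposite direction. Of 7 such genes, 5 fell and 1 rose, with a median log2 fold change of -1.20, where 23.8% of all genes tested fell. Dusp1, an immediate early gene whose product acts mainly on the stress-activated MAP kinases, had 139, 93.3 and 81.4 CPM in control replicates 1, 2 and 3, and 13.6, 21.6 and 27.7 in tumour replicates 1, 2 and 4. On the log2 scale the difference was -2.32 ± 0.30 (edgeR adjusted p = 0.000533). Dusp8 and Dusp10, whose products act on the same stress-activated kinases, had -2.30 ± 0.40 and -2.29 ± 0.27 (edgeR adjusted p = 0.00235 and 0.000322).

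Dusp7, which encodes a cytoplasmic ERK phosphatase close to Dusp6, fell from 23.2 ± 2.30 to 10.1 ± 1.54 CPM (SD, n = 3). Dusp9, the remaining cytoplasmic ERK phosphatase gene, was the one that rose, from 1.20, 0.578 and 0.690 in control replicates 1, 2 and 3 to 5.35, 3.36 and 3.51 in tumour replicates 1, 2 and 4 (log2 fold change 2.32 ± 0.39, edgeR adjusted p = 0.00176). The fall of Dusp2, -0.98 ± 0.28 (adjusted p = 0.0236 in edgeR), did not pass without control replicate 1 or 2 or tumour replicate 2 or 4 (adjusted p of 0.0689, 0.0953, 0.0630 and 0.0611). Dusp16 did not pass at 0.33 ± 0.17 (adjusted p = 0.149), but did without tumour replicate 1 (0.48, adjusted p = 0.0197).

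**Figure D4:**
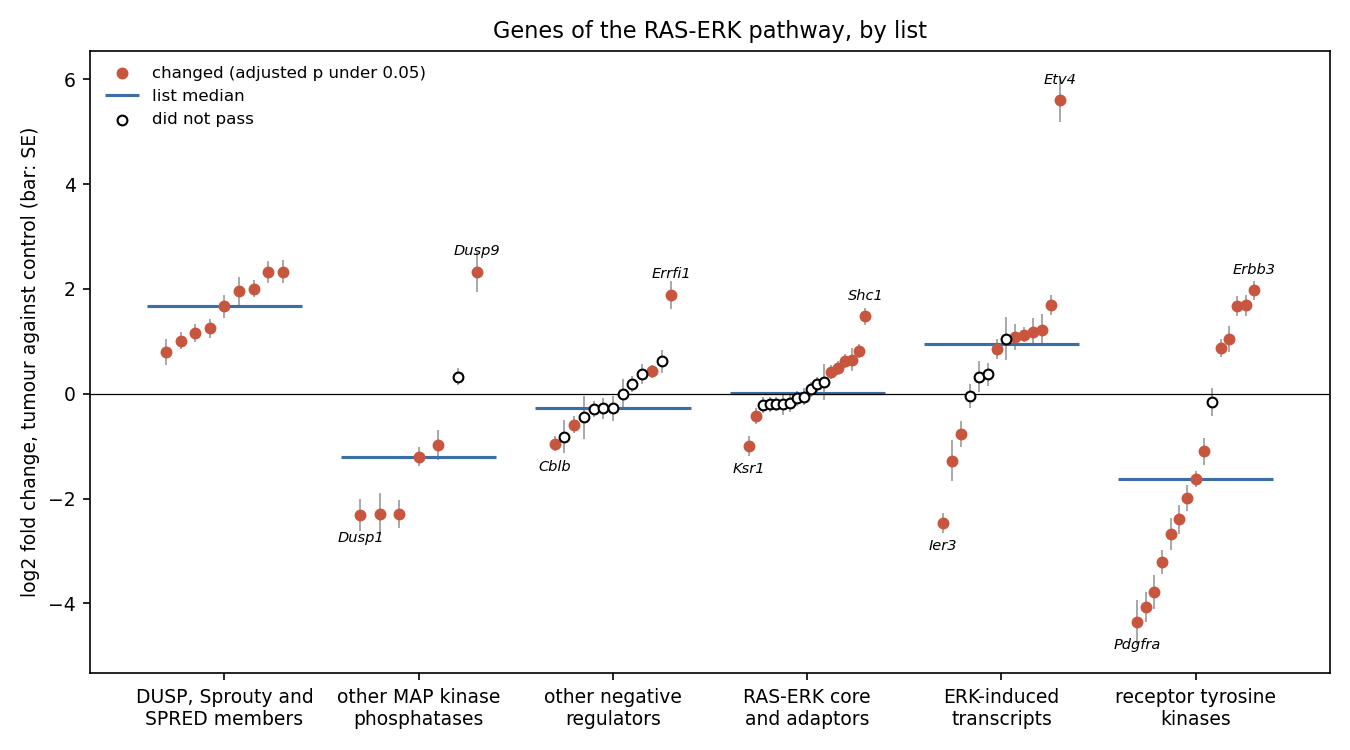
Log2 fold change of tumour against control for each gene of 6 lists, with its SE as a bar; filled points passed the test, open points did not, and the blue line is the list median. The 9 members lie between 0.79 and 2.33, while the other MAP kinase phosphatases have a median of -1.20 and the core genes one of 0.02.

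Of 13 other negative regulators of the pathway, 2 rose, 2 fell and 9 did not pass, with a median of -0.28. Over all genes tested 18.1% rose and 23.8% fell, so neither count stands above the whole table. Errfi1, which encodes a feedback inhibitor of the EGF receptor family, had the largest rise, from 93.9, 79.5 and 60.4 CPM in control replicates 1, 2 and 3 to 195, 334 and 335 in tumour replicates 1, 2 and 4 (log2 fold change 1.89 ± 0.26, edgeR adjusted p = 0.000705). Cblb, a ubiquitin ligase gene, had the largest fall, -0.95 ± 0.15 (edgeR adjusted p = 0.00113). Nf1, which encodes the neurofibromin that SPRED proteins recruit, had 194 ± 3.84 CPM in controls and 297 ± 93.3 in tumours and did not pass (edgeR adjusted p = 0.0564).

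The core list holds the kinases and adaptors that carry the signal. Of 18 core genes, 6 rose, 2 fell and 10 did not pass, beside 18.1% of all genes tested that rose and 23.8% that fell, and the median log2 fold change was 0.02. Called in either direction, the core genes are near the whole table's share, and nothing particular to them is read from these counts. Shc1, an adaptor gene, had the largest rise, 1.47 ± 0.17, and Ksr1, a scaffold gene, the largest fall, -1.0 ± 0.19 (edgeR adjusted p = 0.000249 and 0.00367).

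Of 14 transcripts known to be induced by ERK signalling, 7 rose, 3 fell and 4 did not pass, with a median of 0.95. Of all genes tested 18.1% rose and 23.8% fell, and the count that fell is near that share. Etv4, which encodes an ETS transcription factor, went from 0.380, 0.532 and 0.548 CPM in control replicates 1, 2 and 3 to 37.2, 16.6 and 18.1 in tumour replicates 1, 2 and 4. The rise was 5.60 ± 0.41 on the log2 scale (edgeR adjusted p = 3.48e-05), and tumour replicate 1 was the highest, as it was for Dusp6. Ier3, an immediate early gene, fell by 2.46 ± 0.19 on the log2 scale (edgeR adjusted p = 4.60e-05).

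Genes whose profile over the 6 libraries was most like that of a member were sought among 10785 genes by the root mean square distance between log2 profiles centred on their means. Nearest to Spred1 were Shmt1, a folate pathway enzyme gene, at 0.04 log2 units, and Azin1, a regulator of polyamine synthesis, at 0.07. Among the members the nearest to Spred1 was Dusp4, at 0.20, followed by Dusp5 at 0.23 and Dusp6 at 0.26. Nearest to Dusp6 were Psat1, a serine synthesis enzyme gene, at 0.13, and Cenpe, a kinetochore motor gene, at 0.14. Shmt1 had 15.6, 13.7 and 13.2 CPM in control replicates 1, 2 and 3, and 85.6, 58.1 and 63.1 in tumour replicates 1, 2 and 4, the same order of libraries within the tumours as Spred1. These distances are over 6 libraries in 2 groups and describe likeness only.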

How the data were processed

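The authors deposited raw read counts per gene name for 6 libraries. Per the file headers, they counted exon reads with featureCounts 1.6.5 and GENCODE vM1 annotation, whose coordinates are mm9, with no strand setting, pairs not joined, and reads over several names counted for each. The submitters' processing notes name STAR without a version.

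The members and lists were chosen with earlier results of these data known. The whole table was fitted in edgeR 4.0.16 under R 4.3.3: filterByExpr (minimum count of 10), TMM scaling, and a quasi-likelihood F test with 1 term, tumour or control, adjusted by Benjamini-Hochberg. Each SE was derived from the F statistic. CPM used TMM-scaled library sizes; profiles used log2 values with a prior count of 2. Of 142 list entries, 139 matched by symbol and 2 by an older one. Named genes were all members, the largest and smallest called change of each pathway list, the 2 nearest profiles of Spred1 and Dusp6 (mean log2 level of at least 2), and the first gene of each marker list; Nf1 and the other MAP kinase phosphatases were added after their values were seen. Alternatives were DESeq2 1.42.0, limma-voom 3.58.1, other scalings, filters and thresholds, each library left out, and a replicate block. No 2 libraries of a group agreed within sampling noise (the smallest chi-square was 59.1 times its degrees of freedom).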

Additional observations from a re-analysis of the deposited data

How the results depend on the processing

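Over the 16 alternatives, none of the 144 member values changed sign and 12 lost their call: Spred3 in 8 of them, Spry1 in 2, and Spry4 and Spred2 in 1 each. Against a 2-fold change (edgeR glmTreat) 5 members passed, and 3965 genes in all, 1056 of them higher, compared with 8397 and 3627; Spry1, Spry4, Spred2 and Spred3 had adjusted p of 0.679, 0.140, 0.252 and 1.00. At an adjusted p under 0.01, 2073 genes were higher. With each library left out, 8 or 9 members passed and 6421 to 9436 genes changed. Replicate numbers 1 and 2 occur in both groups. Same-numbered libraries did not deviate together (correlations of -0.26 and -0.03 over 12893 genes), where differently numbered ones ran from -0.24 to 0.30. With 2 such pairs, and deviations taken from each group's own mean, this cannot decide whether the numbers pair libraries. With the replicate block, which leaves 1 residual degree of freedom, 3641 genes changed, 1092 of them higher, and 7 members passed, with Spry1 and Spred3 at adjusted p of 0.0597 and 0.226; of the other genes named, Dusp2 (0.232), Dusp7 (0.0766), Ksr1 (0.129), Cblb (0.0848), Sftpc (0.242) and Ager (0.0533) lost their call with the block, and the same 6 did against a 2-fold change (0.794, 0.194, 0.728, 0.940, 0.0746 and 0.167). Col1a1 and Cd68, which did not pass, changed sign: with the block Col1a1 had 0.31 and Cd68 -0.39, and with each library left out they ran from -0.61 to 0.23 (0.23 without control replicate 3) and from -0.17 to 0.62 (-0.04 without control replicate 3, -0.17 without tumour replicate 2). With each library left out, the share of Spry2 differed by 8.49 to 12.6 percentage points and that of Spred1 by 10.4 to 14.4; the Dusp6 difference of -3.04 points, within the spread between libraries, ran from -1.14 without control replicate 2 to -5.48 without control replicate 3. Spred3 had the fewest reads, 137 to 182 per control library, and the smallest fold; whether depth ended its calls was not tested.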

Other observations

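Of 15 genes of receptor tyrosine kinases, which act upstream of these inhibitors, 5 rose, 9 fell and 1 did not pass, with a median log2 fold change of -1.62. Over all genes tested 18.1% rose and 23.8% fell. Erbb3, an EGF receptor family gene, had the largest rise, from 59.1, 55.6 and 56.0 CPM in control replicates 1, 2 and 3 to 277, 198 and 194 in tumour replicates 1, 2 and 4 (log2 fold change 1.97 ± 0.18, edgeR adjusted p = 9.17e-05). Pdgfra, a receptor gene of fibroblasts, had the largest fall, -4.36 ± 0.43 (edgeR adjusted p = 0.000131). Pdgfra is also on the fibroblast list and Kdr on the endothelial list, both of which were lower in the tumours, and the part of those cells in these falls was not tested.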
